A study of Mus musculus with 9 samples.

Results

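The Siglec genes encode sialic acid binding immunoglobulin-like lectins, and 7 of them were followed by name through the RNA tables and the H3K4me3 peak lists of 3 bone marrow cell populations: Siglec5, Siglece, Siglecg, Siglech, Siglec1, Cd33 and Cd22. They are 7 of the 23471 gene symbols in the RNA tables. Siglec5 in these files stands for the gene of Siglec-F, which the RefSeq table lists as Siglecf. All cells came from untreated mice of the Balb/c strain, with bone marrow pooled before sorting. Granulocyte-macrophage progenitors (GMP) had no lineage markers and carried CD34, high c-kit and CD16/32. Eosinophil progenitors (EoP) had no lineage markers and carried CD34, low c-kit and CD125, the interleukin 5 receptor alpha chain. Mature eosinophils (Eos) were sorted on CCR3 and Siglec-F. Each population gave 2 RNA libraries from separate sorts and 1 H3K4me3 library. The sources do not say that the sorts used different mice, so each p-value measures the spread between these libraries. Eos were sorted on the Siglec-F protein, so the presence of its mRNA in Eos is not a finding.

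Siglecs sit on the cell surface and bind sialic acids at the ends of glycan chains, on the same cell or on its neighbours. Most members carry tyrosine motifs that recruit the phosphatases SHP-1 and SHP-2 and dampen activation, while a few carry a charged membrane residue and pair with the activating adaptor DAP12 instead. Siglec-F is the classic surface marker of mouse eosinophils, where its ligation is known to promote cell death. Siglec-E is an inhibitory receptor of neutrophils and macrophages, Siglec-G an inhibitory receptor best known from B-1 cells, and CD22 the inhibitory co-receptor of B cells. Siglec-H marks plasmacytoid dendritic cells, and Siglec-1, or sialoadhesin, marks tissue macrophages.

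The genes Siglec5, Siglecg, Cd33 and Siglece lie together on chromosome 7 within 308.821 kb (mm10). Siglec5 (chr7:43351341-43359470) and Siglecg (chr7:43408280-43418349) are on the plus strand, and Cd33 (chr7:43527456-43533171) and Siglece (chr7:43651070-43660161) are on the minus strand. Siglech (chr7:55768178-55778833, plus strand) and Cd22 (chr7:30865404-30880342, minus strand) are elsewhere on chromosome 7, and Siglec1 (chr2:131069220-131086765, minus strand) is on chromosome 2. RefSeq start sites on GRCm38.p6 were found for 6 of the 7 genes. Among the 250 bases before these starts, Siglec5 and Cd33 shared the longest stretch, a run of 16 identical bases that was found in 2 of the 32851 upstream windows in the table, these 2. The next longest run shared by any pair of members had 10 bases. The bases around the shared run are shown because Siglec5 and Cd33 differ in their RNA, with the run in capitals. The Siglec5 stretch is chr7:43351254-43351340 on the plus strand and the Cd33 stretch chr7:43533253-43533388 on the minus strand, each read 5′ to 3′ toward its gene.
Siglec5: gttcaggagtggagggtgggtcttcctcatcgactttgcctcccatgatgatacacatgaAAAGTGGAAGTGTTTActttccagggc
Cd33: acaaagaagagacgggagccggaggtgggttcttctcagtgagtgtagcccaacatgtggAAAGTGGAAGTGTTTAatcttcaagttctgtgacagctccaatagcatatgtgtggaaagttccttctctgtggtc
The run began 27 bases before the start of Siglec5 and 157 bases before the start of Cd33. In a local alignment of the 300-base windows around the starts, 114 of 180 aligned columns were identical (63.3%). Of 27024 genes in the table, Cd33 had the rank 5 in alignment score against Siglec5, and Siglec5 had the rank 1 against Cd33. The letters GGAAGT, searched on both strands, lie inside the run, and 23.8% of all 32851 windows of 300 bases hold them. TGTGGT, on either strand in 16.8% of windows, was found at +42 of Siglec5 and 88 bases before Cd33, and GATAA, in 25.4% of windows, at +13 of Siglec5. Siglech, which lacks the shared run, also held GGAAGT, 156 bases before its start, and TGTGGT, 115 bases before it. These matches describe the letters only. They are from the C57BL/6J reference, not from the Balb/c cells.

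The 120 bases before the earlier of the 2 Siglecg starts in the table (chr7:43408119-43408238, plus strand) are shown because an H3K4me3 peak over the start was listed in Eos only. Capitals mark the 62 bases inside that peak.
Siglecg: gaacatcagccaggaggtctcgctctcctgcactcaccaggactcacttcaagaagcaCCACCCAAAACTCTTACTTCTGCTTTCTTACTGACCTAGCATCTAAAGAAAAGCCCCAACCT
The 250 bases before the members' starts held 1 to 4 CG pairs. The median over all windows was 6, and 49.6% of all windows held 5 or fewer.

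The RNA libraries held 5226653 to 12088134 counts. Of the gate genes, Il5ra, Ccr3 and Kit followed the labels, and Fcgr3 did not. Il5ra was at 1.79 and 2.18 CPM in GMP and at 399 to 1179 in EoP and Eos. CPM are counts per 1e6 counts, with library sizes scaled by TMM factors. Ccr3 was at 21.3 and 34.5 CPM in EoP against 2272 and 2973 in Eos. Kit was at 296 and 309 CPM in GMP, 200 and 237 in EoP and 39.1 and 111 in Eos. Fcgr3, for CD16 of the GMP gate, was lowest in GMP, at 27.0 and 34.7 CPM. It was at 190 and 225 CPM in EoP and at 412 and 593 in Eos. The summed eosinophil markers (9 of 9 in the files) were at 302 and 1222 CPM in GMP, 192775 and 241257 in EoP and 20996 and 24655 in Eos. The Eos libraries also held neutrophil markers (13 of 14 in the files), at 41819 and 48352 CPM in sum, against 269 to 1951 in the other 4 libraries. Eos replicate 1 stood apart from Eos replicate 2 in GMP markers (8 of 8), at 14964 against 5085 CPM, and in B cell markers (13 of 14), at 261 against 124 CPM. In bulk samples, fewer cells of a type and less RNA per cell cannot be told apart.

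**Figure D1:**
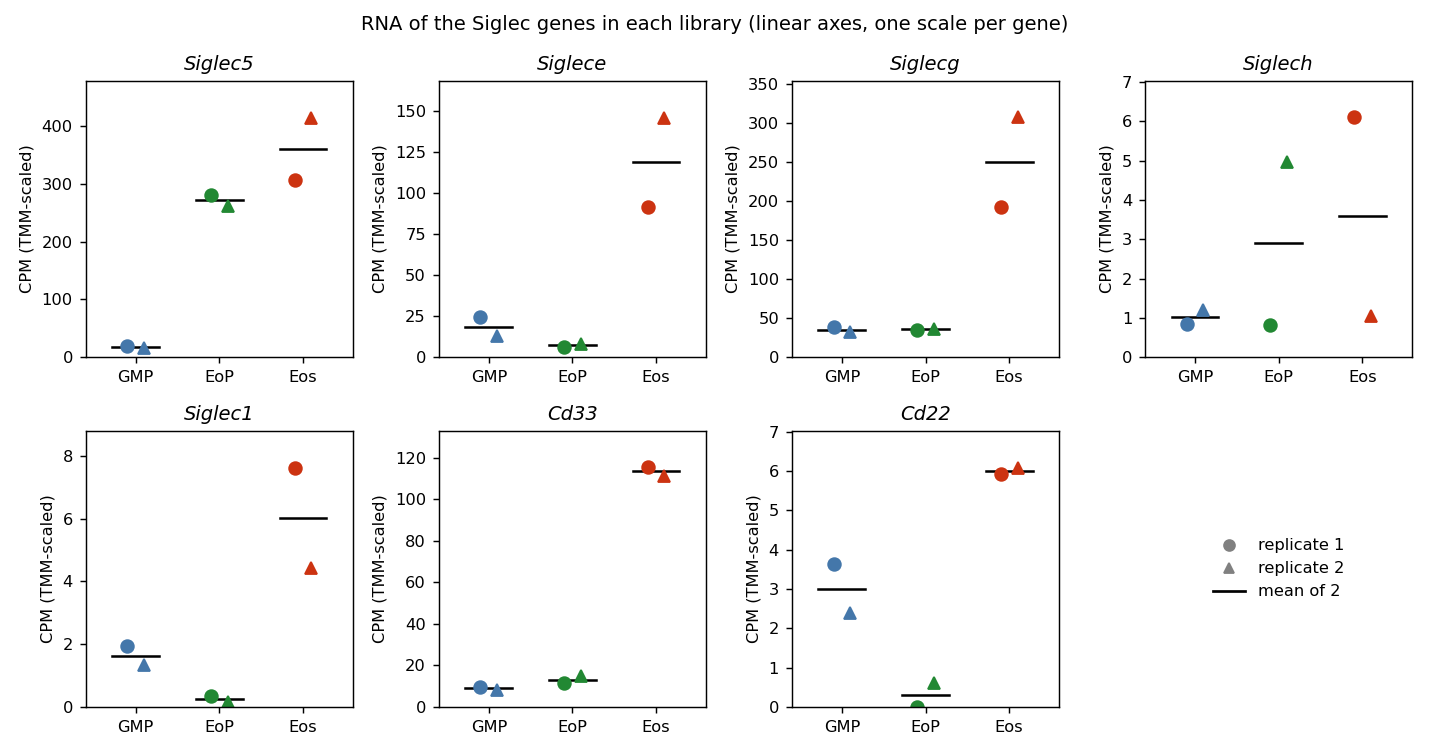
CPM of each Siglec gene (y axis, linear, own scale per gene) in the 2 libraries of GMP, EoP and Eos (x axis). Circles are replicate 1, triangles replicate 2 and lines the mean of 2. Siglec5 is high in both EoP libraries, Siglece, Siglecg and Cd33 are high in Eos only, and the replicates of Siglech lie apart in EoP and in Eos.

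The members differed in where their RNA was high. Siglec5 was high from EoP on, Siglecg, Cd33 and Siglece were high in Eos, and Siglech, Siglec1 and Cd22 stayed under 8 CPM in every library. In the edgeR quasi-likelihood test, with calls at a p under 0.05 after Benjamini-Hochberg adjustment over all genes tested, 1 member rose and 3 fell in EoP against GMP, where 26.6% of the 14324 genes tested were called (9.49% higher, 17.1% lower). In Eos against EoP 5 rose and 0 fell, where 36.8% of genes were called (19.1% higher, 17.7% lower). In Eos against GMP 5 rose and 0 fell, where 54.5% were called (22.7% higher, 31.8% lower). The number that fell in the latter 2 comparisons was 0 also at an unadjusted p under 0.05 and in the DESeq2 Wald test. The low-count filter kept all 7, but Siglec1 and Cd22, with 0 to 7 counts in the EoP libraries, passed through GMP and Eos. The counts of members are therefore not read against the background.

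Siglec5 had 18.6 and 15.5 CPM in GMP, 282 and 262 in EoP and 308 and 415 in Eos. Both GMP libraries were low, both EoP libraries were high, and the Eos libraries lay above EoP without overlap. The fitted difference in EoP, which were not gated on Siglec-F, was 15.9-fold (log2 fold change 3.99, SE 0.26, edgeR adjusted p = 3.08e-05). Eos against EoP gave 0.41 (SE 0.23, edgeR adjusted p = 0.185). Without Eos replicate 1 that difference was 0.59 with an adjusted p of 0.0390, and on RPKM it was −0.11, so its sign and its call changed with these choices. Per transcript length the EoP libraries held 45.0 and 45.7 RPKM and the Eos libraries 39.8 and 44.1. All counts were on 1 of the 2 Siglec5 transcripts in the files, and the other was at 0 in each of the 6 libraries.

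Siglece, for the inhibitory Siglec-E, had 24.3 and 12.7 CPM in GMP, 6.49 and 8.06 in EoP and 91.7 and 146 in Eos. The EoP libraries were the lowest and the Eos libraries the highest, with no overlap. Siglece rose 16.2-fold from EoP to Eos (log2 fold change 4.02, SE 0.38, edgeR adjusted p = 8.00e-05) and was 6.39-fold higher in Eos than in GMP (2.68, SE 0.35, adjusted p = 0.00028). Its fall from GMP to EoP (−1.35, SE 0.36, edgeR adjusted p = 0.0209) was lost without GMP replicate 1 (−0.79, adjusted p = 0.246), without EoP replicate 1 (−1.17, adjusted p = 0.121), without EoP replicate 2 (−1.34, adjusted p = 0.0954) and on RPKM (−0.81, adjusted p = 0.101). The GMP libraries differed from each other by 1.92-fold in CPM (95% interval 1.48 to 2.51, counting error only). Siglec-E is known from neutrophils, whose markers were also highest in Eos; the part of such cells in the rise was not tested.

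Siglecg, for the inhibitory Siglec-G, had 38.7 and 32.0 CPM in GMP, 35.3 and 36.2 in EoP and 192 and 308 in Eos. The GMP and EoP libraries overlapped and both Eos libraries were above them. Siglecg rose 6.99-fold from EoP to Eos (log2 fold change 2.81, SE 0.27, edgeR adjusted p = 0.000101). In EoP against GMP the fitted log2 fold change was 0.01 (SE 0.26, edgeR adjusted p = 0.979), with a sign that depended on the scaling. Siglec-G is also a B cell gene. The B cell markers, replicate 1 first, summed to 49.5 and 35.2 CPM in GMP, 28.2 and 58.1 in EoP and 261 and 124 in Eos, with none of the 13 at 0 in Eos. Siglecg was higher in Eos replicate 2, and the B cell markers were higher in Eos replicate 1. Their part in the Siglecg values was not tested.

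Cd33, whose mouse product has a charged membrane residue and can pair with DAP12, had 9.68 and 8.34 CPM in GMP, 11.3 and 15.1 in EoP and 116 and 111 in Eos. Both Eos libraries were far above the other 4, which did not overlap between GMP and EoP. Cd33 rose 8.57-fold from EoP to Eos (log2 fold change 3.10, SE 0.25, edgeR adjusted p = 3.70e-05). EoP against GMP gave 0.55 (SE 0.25, edgeR adjusted p = 0.131). The files list 2 Cd33 transcripts of nearly equal length (relative length 1.03), and the estimated counts were shared out differently between them. In GMP the transcript listed first had 0 of 80 and 0 of 56 counts, which allows a share of up to 3.75% and 5.36% at 3 counts (exact 95% upper limits 4.51% and 6.38%). In EoP it held 63.5% (exact 95% interval 53.1 to 73.1) and 68.2% (60.8 to 75.0) of the Cd33 counts, and in Eos 58.2% (55.2 to 61.0) and 51.9% (48.7 to 55.2). No GMP library reached the shares of the other 4 libraries. The intervals cover counting error only, and the sources used here do not give how reads were divided between transcripts.

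Siglech, for the DAP12-paired Siglec-H, had 0.847 and 1.19 CPM in GMP, 0.826 and 4.97 in EoP and 6.13 and 1.05 in Eos. Within EoP and within Eos 1 library was several times the other, and the 3 groups overlapped. The ratio of replicate 1 to replicate 2 was 0.166 in EoP (95% interval 0.0639 to 0.364) and 5.82 in Eos (2.87 to 13.3), from 7 to 61 counts. No comparison was called, with log2 fold changes of 1.53 (SE 1.02, edgeR adjusted p = 0.303) for EoP against GMP, 0.29 (SE 0.91, adjusted p = 0.827) for Eos against EoP and 1.82 (SE 1.02, adjusted p = 0.148) for Eos against GMP. The last was called without Eos replicate 2 (2.61, edgeR adjusted p = 0.0404), and the first turned to −0.11 without EoP replicate 2. Of 12 plasmacytoid dendritic cell markers, 9 were higher in the EoP library with more Siglech and 11 in the Eos library with more Siglech. Spib, a transcription factor of those cells, was at 0.354 and 1.63 CPM in EoP and 44.2 and 10.5 in Eos, and Ly6d at 0 and 2.74 in EoP and 4.92 and 2.10 in Eos. In sum, replicate 1 first, the 12 markers were at 218 and 203 CPM in GMP, 155 and 211 in EoP and 295 and 331 in Eos. In Eos the sum was thus higher in replicate 2, the library with less Siglech. Klk1, Pacsin1 and Cd209d were at 0 in both EoP libraries, and Klk1 was above 0 in both Eos libraries. The summed B cell markers were also higher in the library with more Siglech, at 28.2 and 58.1 CPM in EoP and 261 and 124 in Eos. The part of either cell type in the Siglech values was not tested.

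Siglec1, for sialoadhesin, had 1.94 and 1.34 CPM in GMP, 0.354 and 0.171 in EoP and 7.63 and 4.44 in Eos, from 2 to 76 counts. EoP was lowest and Eos highest, with no overlap. Siglec1 rose from EoP to Eos (log2 fold change 4.51, SE 0.76, edgeR adjusted p = 0.00175). Its fall from GMP to EoP (−2.64, SE 0.79, edgeR adjusted p = 0.0339) was lost without any 1 of the GMP or EoP libraries (adjusted p = 0.186 without GMP replicate 1, 0.103 without GMP replicate 2, 0.0910 without EoP replicate 1 and 0.184 without EoP replicate 2) and in the DESeq2 Wald test (0.0575). Its rise from GMP to Eos (1.87, SE 0.63, edgeR adjusted p = 0.0290) was lost without GMP replicate 1 (0.0937), GMP replicate 2 (0.127) or Eos replicate 1 (0.167), with library size alone (0.0996) and in DESeq2 (0.0533). The macrophage markers (13 of 14 in the files), replicate 1 first, summed to 235 and 135 CPM in GMP, 1337 and 1249 in EoP and 1470 and 2146 in Eos. Among them the complement gene C1qc was at 0.236 and 0.171 CPM in EoP and 16.4 and 7.13 in Eos, and C1qa was at 0 in both EoP libraries. In Eos replicate 1, which had more Siglec1, 12 of the 13 were higher than in Eos replicate 2. Their sum was lower there, at 1470 against 2146 CPM. In EoP replicate 1, which had more Siglec1, 7 of the 13 were higher than in EoP replicate 2. Their part in the Siglec1 values was not tested.

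Cd22, the B cell inhibitory co-receptor, had 3.63 and 2.38 CPM in GMP, 0 and 0.600 in EoP and 5.92 and 6.08 in Eos, from 0 to 59 counts. EoP was lowest in both libraries, and the GMP and Eos libraries did not overlap. Cd22 rose from EoP to Eos (log2 fold change 4.12, SE 0.88, edgeR adjusted p = 0.00549), and Eos against GMP was not called (0.99, SE 0.72, adjusted p = 0.259). Its fall from GMP to EoP (−3.14, SE 0.89, edgeR adjusted p = 0.0269) was lost without GMP replicate 1 (adjusted p = 0.165), GMP replicate 2 (0.0934) or EoP replicate 1 (0.0989). Of the 4 Cd22 transcripts in the files, 2 had the same count in every library, so the sum may hold the same reads more than once. With the largest transcript alone the fall was −1.88 with an adjusted p of 0.181. In EoP replicate 1, where Cd22 was at 0, the B cell markers Ms4a1, Pax5, Blk and Fcrla were at 0 as well. Of 13 B cell markers, 10 were higher in EoP replicate 2, which had more Cd22, and 2 in Eos replicate 2, which also had slightly more Cd22. Their part in the Cd22 values was not tested.

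**Figure D2:**
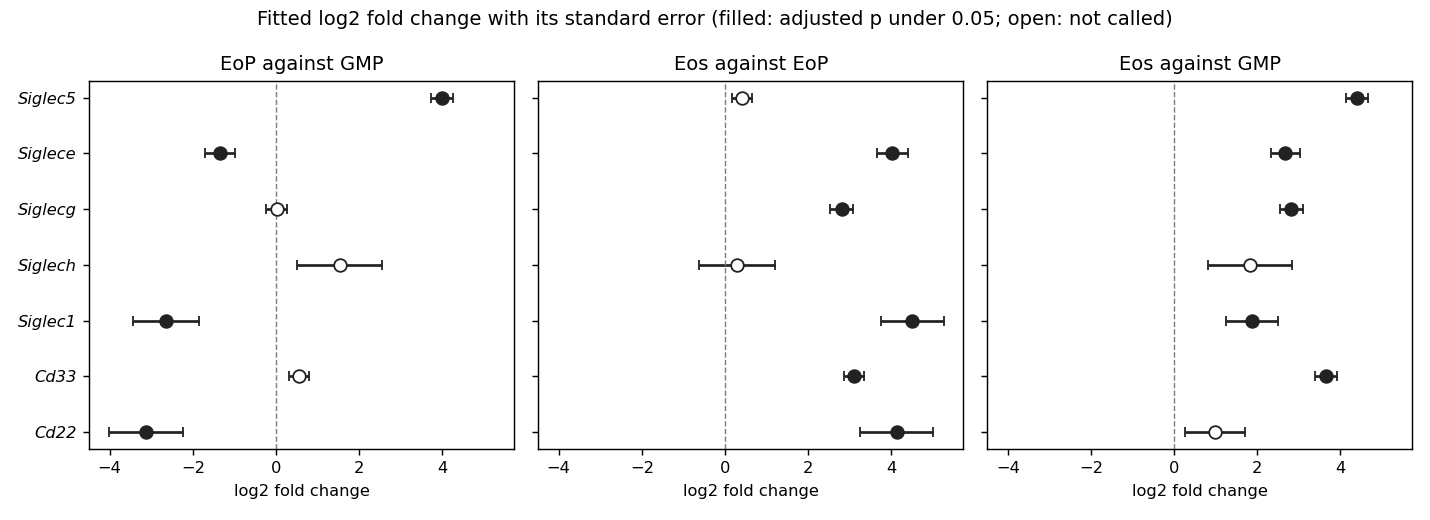
Fitted log2 fold change of each Siglec gene (x axis) with its standard error (bars) in the 3 comparisons of cell types, with filled points for calls and open points for genes not called. Siglec5 lies at 3.99 in EoP against GMP and at 0.41 in Eos against EoP, while Siglece, Siglecg and Cd33 lie between 2.81 and 4.02 in Eos against EoP.

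Levels of different genes were compared per transcript length, on the RPKM scale. In GMP the order by mean was Siglecg (4.30 and 5.39 RPKM), Siglece (2.28 and 4.55), Siglec5 (2.07 and 2.57), Cd33 (1.14 and 1.36), Cd22 (0.217 and 0.327), Siglech (0.122 and 0.166) and Siglec1 (0.0700 and 0.105). Siglece overlapped with both of its neighbours in that order. In EoP it was Siglec5 (45.0 and 45.7), Siglecg (5.69 and 6.37), Cd33 (1.81 and 2.61), Siglece (1.41 and 1.91), Siglech (0.138 and 0.907), Cd22 (0 and 0.0755) and Siglec1 (0.0117 and 0.0222). Cd33 and Siglece overlapped there, and so did Cd22 and Siglec1. In Eos it was Siglec5 (39.8 and 44.1), Siglecg (25.1 and 33.1), Siglece (16.1 and 21.1), Cd33 (11.8 and 14.8), Siglech (0.117 and 0.831), Cd22 (0.410 and 0.493) and Siglec1 (0.186 and 0.388), where Siglech overlapped with Cd22 and Siglec1 and the other neighbours did not overlap.

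The summed RPKM of the 7 genes was 14.4 and 10.2 in GMP, 54.1 and 57.6 in EoP and 97.6 and 111 in Eos. Siglec5 made up 17.8% and 20.2% of that sum in GMP, 83.2% and 79.4% in EoP and 40.8% and 39.8% in Eos. Siglecg held 37.4% and 42.0% in GMP, 10.5% and 11.1% in EoP and 25.7% and 29.9% in Eos. The mix was thus led by Siglecg in GMP and by Siglec5 in EoP, and in Eos Siglec5, Siglecg, Siglece and Cd33 each held over 10% of the sum.

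**Figure D3:**
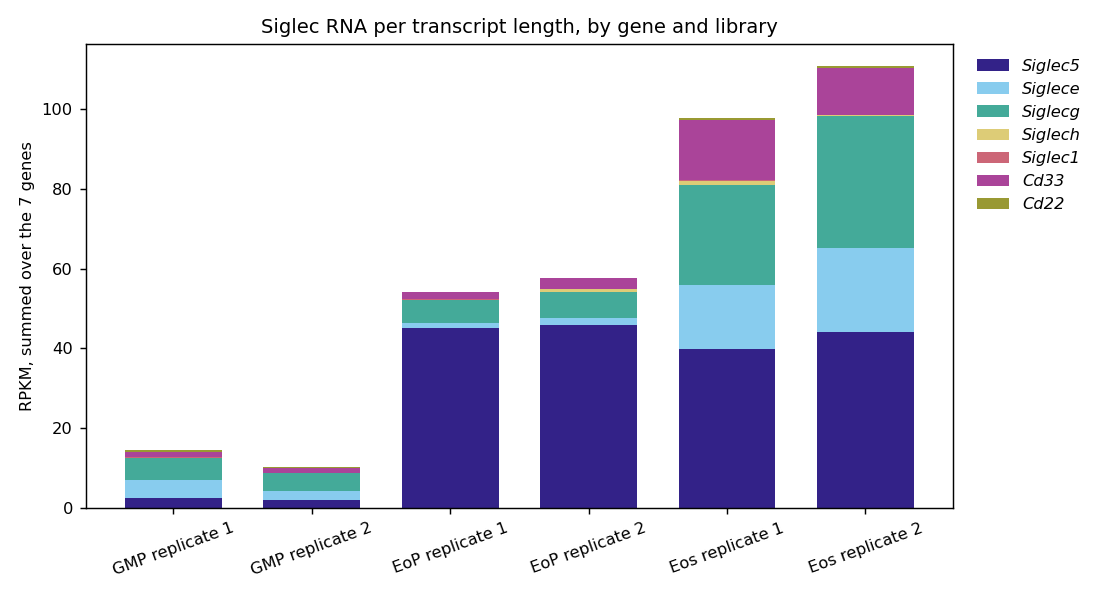
RPKM of the 7 Siglec genes stacked in each RNA library (y axis, from 0), 1 bar per library. The sum grows from 10.2 and 14.4 in GMP to 97.6 and 111 in Eos, and Siglec5 fills 83.2% and 79.4% of the EoP bars.

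Beyond these 7, the files list Mag, for myelin-associated glycoprotein, the Siglec of myelin, and Siglec15, a DAP12-paired Siglec known from osteoclasts. Mag had 0.242 and 0.894 CPM in GMP, 16.0 and 12.6 in EoP and 16.8 and 17.1 in Eos. Like Siglec5, it was low in both GMP libraries and higher in the other 4. Mag rose in EoP against GMP (log2 fold change 4.68, SE 0.54, edgeR adjusted p = 0.000495), and Eos against EoP was not called (0.24, SE 0.39, adjusted p = 0.652). It had 2 and 6 counts in the GMP libraries and passed the low-count filter through EoP and Eos. The size of its rise thus rests on few GMP counts. Siglec15 had 1 count in the 6 libraries together and was not tested.

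H3K4me3 marks the starts of genes that are active or ready to be transcribed, and the authors' peak lists held 30645 peaks in GMP, 19816 in EoP and 33847 in Eos. With 1 library per cell type there is no test, and depth is unknown. A promoter peak was listed for 1 of the 7 genes in GMP, 1 in EoP and 3 in Eos, while 65.5%, 58.6% and 60.5% of the 14324 genes tested for RNA had one. Siglec5 had promoter peaks in all 3 lists, all downstream of its start. In GMP they were short, and the one with the highest fold enrichment (chr7:43351438-43351770, 333 bases) had a fold of 5.71 and a −log10 q of 5.50. In EoP the first peak (chr7:43351400-43351963, 564 bases) had a fold of 7.97 and a −log10 q of 13.02. In Eos a single peak of 1327 bases (chr7:43351392-43352718) reached a fold of 9.58 and a −log10 q of 21.3, and 0.532% of the Eos peaks were longer. The fold and q values are the authors' own and are set within each list. Among genes with a promoter peak, the top fold of Siglec5 exceeded that of 13.7% of genes in GMP, 48.1% in EoP and 56.0% in Eos. Its longest peak exceeded that of 13.7%, 41.2% and 98.4%.

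Siglecg and Cd33, both high in Eos RNA, had promoter peaks in the Eos list only. The larger Siglecg peak (chr7:43408177-43408648, 472 bases) spanned the start, with a fold of 6.81 and a −log10 q of 7.26, and covers the capitals of the Siglecg sequence above. The Cd33 peak (chr7:43532771-43533009, 239 bases) lay 162 to 400 bases inside the gene, with a fold of 6.78 and a −log10 q of 7.14. It did not reach the 16-base run shared with Siglec5, which is upstream of the start. Siglece had no promoter peak in any list, although its RNA was higher in Eos than that of Cd33 per length. Eos peaks were listed in its body, in an exon (chr7:43655925-43656513, 589 bases, fold 6.13) and in an intron (chr7:43654517-43654693, 177 bases, fold 5.15). Siglech, Siglec1 and Cd22 had no listed peak within 3000 bases of their starts. Mag had peaks over an exon inside the gene in all 3 lists, of 863 bases and a fold of 9.53 in Eos, and none at its promoter. The Siglec5 promoter peaks of each pair of lists overlapped, also with at least 50% of the shorter peak.

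**Figure D4:**
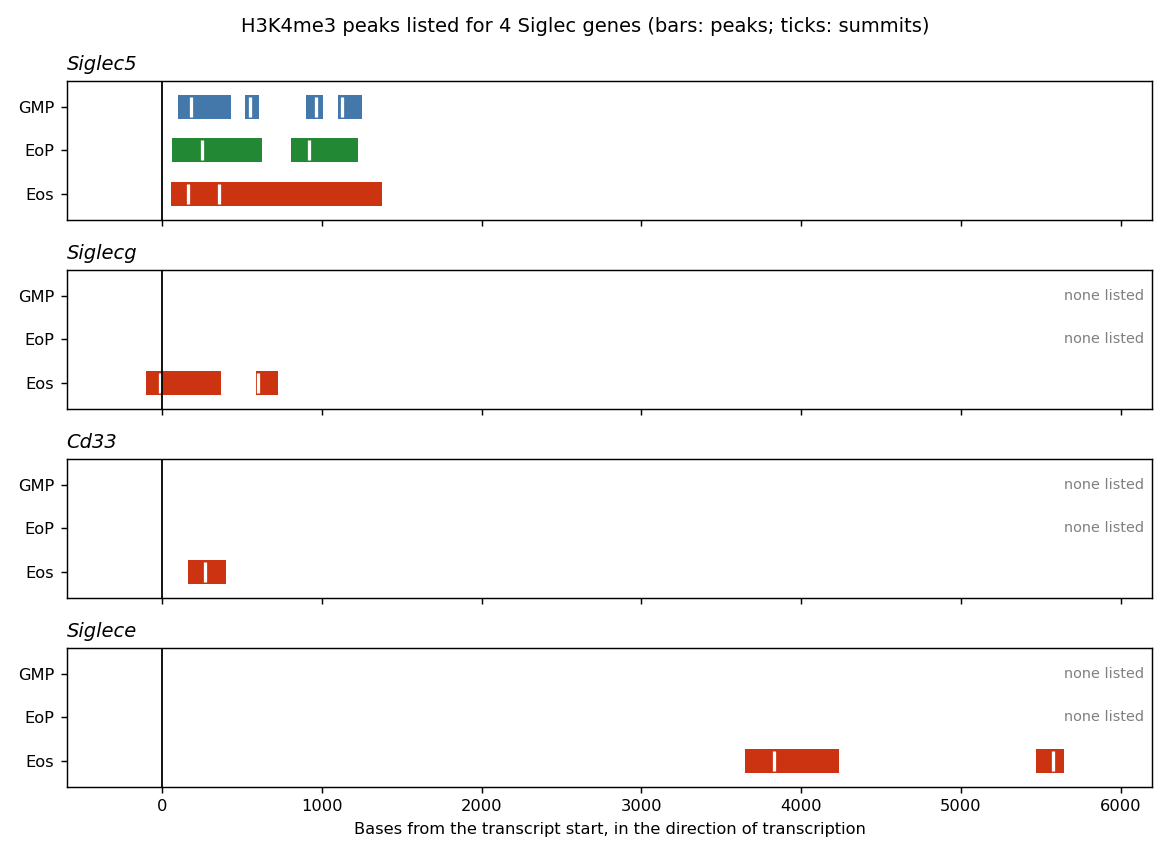
H3K4me3 peaks listed for Siglec5, Siglecg, Cd33 and Siglece, in bases from the transcript start in the direction of transcription (x axis), 1 row per cell type. Bars are peaks, to scale, and ticks their summits. The Siglec5 peaks lie after the start in all 3 lists and form 1 stretch of 1327 bases in Eos, while the other 3 genes have peaks in Eos only.

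Between Siglec5 and Siglece the files list other genes, and these did not share 1 pattern. Etfb, of the mitochondrial electron transfer chain, had 251 and 228 CPM in GMP, 231 and 183 in EoP and 111 and 50.5 in Eos, and fell from EoP to Eos (log2 fold change −1.36, SE 0.33, edgeR adjusted p = 0.0109). Nkg7, of cytotoxic granules, was not called in Eos against EoP (−0.40, SE 0.45, edgeR adjusted p = 0.507). It was lower in Eos than in GMP (−1.35, SE 0.46, edgeR adjusted p = 0.0311), with the Eos libraries far apart at 398 and 114 CPM. Zfp719, a zinc finger gene between Cd33 and Siglece, was at 23.7 to 44.1 CPM in the 6 libraries and was called in no comparison. Ceacam18, next to Siglece, had 1.57 and 0.596 CPM in GMP, 0.236 and 0.857 in EoP and 9.04 and 11.6 in Eos, and rose from EoP to Eos (4.13, SE 0.71, edgeR adjusted p = 0.00189). It was near the floor in GMP and EoP and passed the low-count filter through Eos, so the size of its rise rests on few counts. These neighbours were chosen for their position and level after their values were seen.

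For each member the 4 genes with the most similar profile were found among up to 7308 tested genes, by the root mean square distance of centred log2(CPM + 1) values over the 6 libraries. This is a description and says nothing of function. Nearest to Siglec5 were Ctsh, for cathepsin H (distance 0.238), Gata1, for the transcription factor GATA1 (0.287), Map3k9 (0.306) and Cd55 (0.335). Gata1 had 4.24 and 5.36 CPM in GMP, 69.6 and 60.3 in EoP and 64.8 and 90.0 in Eos, with the GMP libraries low and the others high as for Siglec5. Nearest to Siglecg were Pik3r5, for a regulatory subunit of PI3 kinase gamma (0.106), Tspan17 (0.136), Tbc1d4 (0.143) and Atp11a (0.144), and nearest to Cd33 were Gpcpd1 (0.159), Fam65b (0.160), Gucd1 (0.210) and Cass4 (0.212). Siglece was nearest to Fgd6 (0.230), Abca1, for a cholesterol exporter (0.264), Lrrc25 (0.269) and Lyst (0.286). Siglec1 was nearest to Cd9 (0.197), Shisa5 (0.276), Pde2a (0.278) and Il18bp (0.298), and Cd22 to Milr1 (0.175), Ptprj (0.197), Xdh (0.206) and Ly75 (0.219). For Siglech the nearest were farther off, Tex15 (0.434), Ets1 (0.566), Zbtb26 (0.569) and Il1rap (0.582). At the low levels of Siglech, Siglec1 and Cd22, the added 1 CPM flattens their own profile.

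Genes that carry Siglec signals were mostly higher in Eos. Of 17 signalling partners 16 were tested, and 6 rose and 0 fell in EoP against GMP, with a median log2 fold change of 0.44 against −0.07 over all genes. In Eos against EoP 14 rose and 0 fell (median 1.65 against 0.02), and in Eos against GMP 15 rose and 1 fell (median 1.89 against −0.39). Over all genes tested, 9.49% rose and 17.1% fell in EoP against GMP, and 19.1% rose and 17.7% fell in Eos against EoP. In Eos against GMP 22.7% rose and 31.8% fell. Socs3, among the rises in Eos, had 0 to 7 counts in the GMP and EoP libraries. It passed the low-count filter through Eos, so its rises are no support for a change of the list. No partner fell in the first 2 comparisons at an unadjusted p under 0.05 or in DESeq2 either (0 and 0 by each). By limma on log2(RPKM + 0.5) 9 of 14 tested rose and 1 fell in Eos against EoP, and 13 rose and 1 fell in Eos against GMP. Many of these genes are active in myeloid cells at large, and the neutrophil markers summed to 41819 and 48352 CPM in Eos against 269 to 1951 in the other 4 libraries; their part in the partners' values was not tested. In EoP against GMP 2 rose on leaving out GMP replicate 1, 2 on leaving out GMP replicate 2, 2 on leaving out EoP replicate 1 and 4 on leaving out EoP replicate 2, and 2 with library size alone. From EoP to Eos 8 rose without EoP replicate 1, and in Eos against GMP 11 to 15 rose with a library left out. The list is not independent evidence for the members, since it was chosen with results of these libraries known.

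The Src family kinase Fgr had 2.66 and 2.83 CPM in GMP, 18.9 and 27.9 in EoP and 339 and 562 in Eos, stepping up between each pair of groups with no overlap. It rose by 3.09 (log2, SE 0.35, edgeR adjusted p = 0.000468) from GMP to EoP and by 4.26 (SE 0.33, adjusted p = 2.67e-05) from EoP to Eos. Syk, the kinase downstream of DAP12, rose by 1.23 and Hcst, for the adaptor DAP10, by 1.08 from GMP to EoP (edgeR adjusted p = 0.0150 and 0.0128). Both calls were lost without GMP replicate 1 (0.132 and 0.0912), GMP replicate 2 (0.0793 and 0.0778) or EoP replicate 1 (0.0660 and 0.114). Lyn, the Src family kinase that phosphorylates the tyrosine motifs, rose by 2.09 (SE 0.28, edgeR adjusted p = 0.000556) from EoP to Eos.

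The direct partners of the receptors are named for their role, with their values known. Ptpn6, for SHP-1, had 101.4 and 98.2 CPM in GMP, 115 and 115 in EoP and 334 and 389 in Eos. Its GMP and EoP libraries were close and both Eos libraries higher, and it rose by 1.65 (SE 0.21, edgeR adjusted p = 0.000409) from EoP to Eos. Ptpn11, for SHP-2, did not follow. It had 114 and 85.8 CPM in GMP, 73.8 and 92.4 in EoP and 67.6 and 58.5 in Eos, and Eos against EoP was not called (−0.40, SE 0.23, edgeR adjusted p = 0.202). It was the 1 partner that fell in Eos against GMP (−0.66, edgeR adjusted p = 0.0367), a call lost without GMP replicate 1 (0.270), GMP replicate 2 (0.111), EoP replicate 1 (0.0624), EoP replicate 2 (0.167) or Eos replicate 2 (0.101). Tyrobp, for DAP12, had 300 and 267 CPM in GMP, 517 and 478 in EoP and 1381 and 1774 in Eos, and rose by 1.66 (SE 0.26, edgeR adjusted p = 0.00111) from EoP to Eos. Inpp5d, for the phosphatase SHIP-1, rose by 1.35 (SE 0.23, edgeR adjusted p = 0.00184) over the same step.

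Genes that make or change the sialic acid ligands moved in both directions. Of 8 tested genes of sialic acid synthesis and breakdown, 0 were called in EoP against GMP by edgeR or DESeq2 (1 rose and 1 fell at an unadjusted p under 0.05), 1 rose and 1 fell in Eos against EoP, and 2 rose and 3 fell in Eos against GMP. Over all genes 19.1% rose and 17.7% fell in Eos against EoP, and 22.7% rose and 31.8% fell in Eos against GMP. The falls from EoP to Eos numbered 4 without Eos replicate 1 and 0 without EoP replicate 1, and by limma on RPKM 0 of 7 rose and 6 fell (pseudocount 0.5) or 5 fell (0.1). Those in Eos against GMP numbered 1 without GMP replicate 1 and 1 without GMP replicate 2. Cmah, whose enzyme turns the sialic acid Neu5Ac into Neu5Gc, had 1.82 and 1.79 CPM in GMP, 0.590 and 5.31 in EoP and 26.2 and 33.1 in Eos. Both Eos libraries were above the others, and it rose by 3.27 (SE 0.68, edgeR adjusted p = 0.00476) from EoP to Eos. Npl, for the lyase that breaks sialic acid down, had 27.96 and 31.6 CPM in GMP, 8.84 and 15.6 in EoP and 7.93 and 3.04 in Eos, and was lower in Eos than in GMP (−2.43, SE 0.46, edgeR adjusted p = 0.00233). Cmas, which activates sialic acid for transfer, was higher in Eos than in GMP (1.07, adjusted p = 0.00284 by edgeR), a call lost with library size alone (0.49, adjusted p = 0.0592). Gne, of the first step of synthesis, was lower in Eos than in GMP (−0.72), a call that needed every library but Eos replicate 1 (edgeR adjusted p = 0.0683 to 0.280 when another was dropped). Nans, for sialic acid synthase, fell by 1.07 on the log2 scale from EoP to Eos (SE 0.27, edgeR adjusted p = 0.0121), a call lost without EoP replicate 1 (−0.76, edgeR adjusted p = 0.148), and it was lower in Eos than in GMP by −0.99, lost without GMP replicate 1 (0.0547) or GMP replicate 2 (0.112).

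Of 16 tested sialyltransferases, which attach sialic acid to glycans, 3 rose and 6 fell in EoP against GMP, 5 rose and 1 fell in Eos against EoP, and 8 rose and 7 fell in Eos against GMP. The medians were −0.66, 0.69 and 0.07, against −0.07, 0.02 and −0.39 over all genes. Over all genes tested, 9.49% rose and 17.1% fell in EoP against GMP, and 19.1% rose and 17.7% fell in Eos against EoP. In Eos against GMP 22.7% rose and 31.8% fell. The falls in EoP numbered 0 on leaving out GMP replicate 1 or GMP replicate 2 and 3 on leaving out EoP replicate 1 or EoP replicate 2. From EoP to Eos 3 rose without EoP replicate 1 or Eos replicate 2, and in Eos against GMP 5 rose and 4 fell without GMP replicate 2. The 3 that rose in EoP were St3gal1, St3gal4 and St6gal1. Leaving out GMP replicate 1 left 1 of these rises and leaving out GMP replicate 2 left 2: St3gal1 was lost by each (edgeR adjusted p = 0.0946 and 0.0620) and St6gal1 by the former (0.0944). The 5 that rose from EoP to Eos were St3gal1, St6gal1, St3gal2, St8sia4 and St3gal5. The 6 that fell in EoP included St8sia1, St8sia2, St8sia3 and St8sia6, which build chains of sialic acids. All 4 passed the low-count filter through GMP, with 0 to 41 counts in the EoP libraries, so their falls are no support for a change of the list. The same limit holds in Eos against GMP, where they were 4 of the 7 falls, on 1 to 21 counts per Eos library. In the DESeq2 Wald test 8 rose and 4 fell in Eos against GMP. With a minimum of 50 counts in 2 libraries, 3 of 12 tested genes fell in EoP, and on log2(RPKM + 0.5) 1 of 10. St3gal5, the synthase of the ganglioside GM3, had 1.57 and 0.894 CPM in GMP, 0.708 and 0.857 in EoP and 18.7 and 25.5 in Eos, and rose by 4.78 (SE 0.50, edgeR adjusted p = 0.000142) from EoP to Eos. St6galnac3 went the other way, with 27.7 and 33.6 CPM in EoP and 3.21 and 1.29 in Eos (−3.74, SE 0.42, edgeR adjusted p = 0.00021). St6gal1, which builds the α2,6-linked ligand preferred by CD22, had 2.78 and 3.43 CPM in GMP, 8.14 and 17.8 in EoP and 28.7 and 39.6 in Eos, and was higher in Eos than in GMP (3.46, SE 0.44, edgeR adjusted p = 0.000237). St8sia3 had 49 counts in GMP and 0 in EoP, at least 22.0-fold lower against a floor of 3 counts over the group.

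Of the other ligand genes, Neu1, for the lysosomal sialidase, had 53.5 and 48.7 CPM in GMP, 183 and 143 in EoP and 119 and 143 in Eos, and rose by 1.67 (SE 0.23, edgeR adjusted p = 0.00125) from GMP to EoP. Neu4, another sialidase, had 38 counts in GMP and 0 in EoP, at least 17.0-fold lower. Neu4 passed the low-count filter through GMP, and its call was lost without GMP replicate 1 (edgeR adjusted p = 0.102), GMP replicate 2 (0.0588) or EoP replicate 2 (0.0511). These were the 2 called in EoP against GMP among 5 tested sialidase and esterase genes, and with at least 50 counts in 2 libraries Neu4 was not tested. Over all genes tested, 26.6% were called in EoP against GMP, 36.8% in Eos against EoP and 54.5% in Eos against GMP. Neu4 was the 1 gene called in Eos against EoP, on 8 counts in Eos, a call lost in 8 alternatives, and in Eos against GMP Neu1 rose and Neu4 fell, the latter also a call on few counts. Siglec-F is known to bind sulfated sialyl Lewis X, and 7 genes of sulfation and fucosylation were tested. In EoP against GMP 1 rose, Papss2, for the synthase of the sulfate donor, and in Eos against EoP 2 rose and 2 fell. Over all genes 9.49% rose and 17.1% fell in the former, and 19.1% rose and 17.7% fell in the latter. Papss2 had 174 and 170 CPM in GMP, 360 and 342 in EoP and 32.2 and 17.1 in Eos. It was high in EoP and lowest in Eos, and fell by 3.83 on the log2 scale from EoP to Eos (SE 0.31, edgeR adjusted p = 3.98e-05). Its rise in EoP was lost on leaving out each of these 4 libraries in turn (edgeR adjusted p = 0.0527 to 0.156). Chst3, a sulfotransferase of chondroitin, rose by 3.09 (SE 0.74, edgeR adjusted p = 0.00972) from EoP to Eos. Fut4, a fucosyltransferase of Lewis X, rose by 1.32 (SE 0.25, edgeR adjusted p = 0.0031), and Fut7, its partner in sialyl Lewis X, fell by 1.53 on the log2 scale (SE 0.37, edgeR adjusted p = 0.00974) from EoP to Eos, a call lost without EoP replicate 2 (adjusted p = 0.0892). In Eos against GMP Fut4 was higher (1.08), a call lost with library size alone (0.49, edgeR adjusted p = 0.102). Fut7 and Papss2 were lower, and the call of Fut7 was lost without GMP replicate 2 (edgeR adjusted p = 0.0589).

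**Figure D5:**
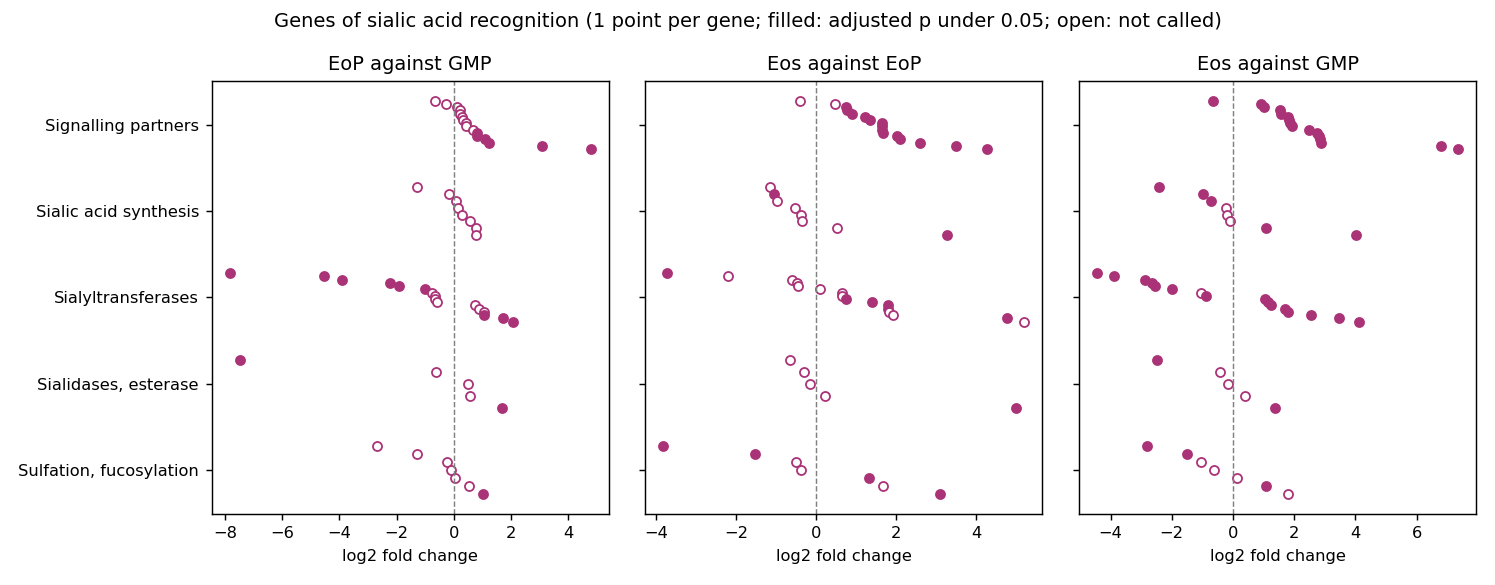
Fitted log2 fold change (x axis, own range per panel) of each tested gene in 5 lists of Siglec signalling and ligand genes (rows), for the 3 comparisons, filled for calls and open for genes not called. In Eos against EoP 14 of 16 signalling partners are called and all 14 lie above 0, while the sialyltransferases lie on both sides. The values of St8sia3 and Neu4, with 0 counts in EoP, depend on the fit and are no measure of size.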

How the data were processed

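RNA was measured in 6 libraries and H3K4me3 in 3, grouped by title. The deposited RNA files give an estimated count and an RPKM value per RefSeq transcript. Per the submitters' processing notes, the tools were STAR 2.4.0c and Bowtie 1.0.0, with build mm10; the roles of these tools and the counting method are not named. The deposited peak lists, 1 per H3K4me3 library, give per the file headers a pileup signal, −log10 p and q values, a fold enrichment ratio and a length; the peak caller is not named.

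Here whole estimated counts were summed per gene symbol, filtered with the edgeR default and tested in R 4.3.3 with the edgeR 4.0.16 quasi-likelihood test (TMM, 1 fit of 6 libraries, 3 residual degrees of freedom, common dispersion 0.0692), after a check on simulated data. RPKM values were summed per symbol for levels and for limma 3.58.1. Reads shared by related genes could be misplaced by any counting. Ratios of 2 libraries have 95% counting intervals, and a count of 0 is bounded at 3 counts. Promoter peaks are those the authors' region annotation calls promoter. Promoter sequences are from RefSeq on GRCm38.p6, aligned with Biopython 1.88 (match 2, mismatch −1, gap −5 and −1). Alternatives were DESeq2 1.42.0 (size factors, Wald test), other scalings, filters and RPKM pseudocounts (0.5 and 0.1), the replicate block, each repeated transcript once, only the compared groups and each library left out; the largest transcript alone was added after seeing the data, as were the motifs.

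The members and lists were chosen with earlier results of these data known. Named are the members, up to 4 called genes of a list by size of change, 4 nearest profiles among genes of at least 20 CPM, and genes said in the text to be named otherwise. Markers absent from the files under the symbols used were Ighm, Adgre1 and Ly6g; basophil and monocyte markers summed to 142 to 4528 and 143 to 1255 CPM. Counts and sums cover whole lists, of which 2 genes are not reported by name here.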

Additional observations from a re-analysis of the deposited data

How the results depend on the processing

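Of the alternatives to single-gene results, 376 kept direction and call, 20 lost a call, 3 gained one and 12 changed sign; of those to counts of members, 55 stayed within 1.5 times the main count and 8 did not. In EoP against GMP 4 members were called, 1 of 4 tested by limma on log2(RPKM + 0.5) and 1 on log2(RPKM + 0.1), and 1 to 4 when a library was left out. In Eos against EoP 5 were called, 3 of 4 tested by limma with either pseudocount (3 and 3), and 5 to 6 with a library left out. In Eos against GMP 5 were called, and 4 to 6 with a library left out. The signs that changed belong to differences that were not called. Siglecg in EoP against GMP was at −0.0027 with DESeq2 size factors, −0.17 with upper quartile factors, −0.45 with library size alone, −0.070 with at least 50 counts in 2 libraries and −0.0056 with only the 2 cell types. With a library left out, Siglech ranged from −0.11 (without EoP replicate 2) to 2.31 in that comparison and from −1.49 (without Eos replicate 1) through −0.46 (without EoP replicate 1) to 2.14 in Eos against EoP. In Eos against EoP on RPKM, Siglec5 was at −0.11 with both pseudocounts and Mag at −0.21 (0.5) and −0.25 (0.1). The cause of these changes was not tested.

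The median of all genes moved with the scaling and with the unit. In EoP against GMP it shifted by −0.46 with library size alone and −0.18 with upper quartile factors, and the share of calls that were higher went from 35.7% to 14.3% and 25.2%. On log2(RPKM + 0.5), where the unit, the test and the genes tested (9938) differ as well, the shift was 0.27 and the share 87.0%. In Eos against EoP it shifted by −0.50 on log2(RPKM + 0.1) (51.8% to 24.9% higher), and in Eos against GMP by −0.58 with library size alone (41.7% to 23.0%). Of the signalling partners, 6 rose in EoP against GMP, and 4 with DESeq2 or upper quartile factors, 2 with library size alone and 9 on RPKM. Promoter peak counts of 1, 1 and 3 members stayed with the 19816 top peaks of each list and with any peak within 3000 bases.

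With the replicate number as a block, 3, 5 and 5 members were called in the 3 comparisons; the block changed the call of Siglec1 in EoP against GMP (−2.62, edgeR adjusted p = 0.0541) and of no other member. Deviations of same-numbered libraries from their group means correlated at −0.0995 for GMP and EoP, 0.0194 for GMP and Eos and −0.0849 for EoP and Eos. These values show no common deviation by replicate number. They cannot tell whether same-numbered sorts shared mice. Depth limits Siglech, Siglec1 and Cd22, which had 0 to 76 counts per library.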
